A study of Homo sapiens with 8 samples.

Results

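The set described here holds 59 human genes for proteins that assemble ribosomes, chosen by name and sorted by the subunit and the stage at which their products act. They are 59 of the 58219 genes listed for each library, and all of them were among the 13129 protein-coding genes with enough reads to be tested. The processome of the small subunit has 24 of them, the late small-subunit factors 5, large-subunit assembly 17, large-subunit export 1, the RNA exosome 9, and the multifunctional proteins of the nucleolus 3. The rule names genes by known function and holds no measured value, but the set was drawn up with earlier results of these data known.

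Ribosomes are built in the nucleolus on one long precursor RNA. The small-subunit processome, a large particle made of the UTP-A, UTP-B and MPP10 subcomplexes and many single factors, forms first on the nascent precursor and guides its folding and cleavage. A separate chain of factors matures the large subunit. The RNA exosome trims precursor ends and removes the spacer fragments, and adaptor proteins link particles to receptors for export to the cytoplasm. Plasma cells secrete large amounts of antibody, and myeloma cells depend on a high rate of protein synthesis.

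The data are RNA-seq libraries of H929 and KMS11, established human multiple myeloma cell lines that both carry the t(4;14) translocation. Each line was grown for 24 h with 2 µM fluvastatin, which inhibits HMG-CoA reductase, the rate-limiting enzyme of the mevalonate pathway, or with ethanol, its solvent. Every line and treatment has 2 biological replicates, so that there are 4 groups and 8 libraries. The time was chosen to precede cell death, and with 2 lines a difference between them cannot be carried over to other myelomas. In RNA from a whole culture, fewer cells with a transcript and less of it per cell cannot be told apart.

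Total expected counts ranged from 26702515 to 41910446 per library. Of 8 plasma cell markers, 8 had a mean of at least 1 TPM, the length-scaled share of transcripts, in H929 and 7 in KMS11, where CD38 was between 0.01 and 0.04 TPM. Of 10 markers of other cell types, 2 reached that level in each line, among them EPCAM at 30.2 to 35.9 TPM in KMS11 and PECAM1 at 5.87 to 7.98 TPM in H929. The library KMS11 fluvastatin replicate 1 stood apart from the others of its line by the GC content of its transcripts. Against the mean of all libraries, its fitted log2 deviation was -0.08 at the 10th percentile of GC content and 0.09 at the 90th, whereas the other 3 KMS11 libraries had 0.18 to 0.23 at the 10th and -0.42 to -0.33 at the 90th. The H929 libraries differed among themselves too. Their deviation at the 90th percentile was 0.45 and 0.24 in ethanol replicates 1 and 2, and 0.32 and 0.05 in fluvastatin replicates 1 and 2. The median responses of KMS11 and of the difference between the lines are given with and without KMS11 fluvastatin replicate 1. Other KMS11 values include this library unless stated.

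The start regions of the genes are shown first, since the genes moved together in H929. RefSeq start regions on GRCh38.p14 were found for 52 of the 59 genes. The 250 bases before each start were searched on both strands for CACGTG, the E-box bound by MYC and related factors, for CCGGAAG, a core bound by ETS factors, and for GCATGCGC, part of the site of NRF1. The E-box was present in 7 of the 52 (13.5%) and in 8.88% of the 10642 tested genes with a start region. The ETS core was present in 15 (28.8%, against 15.9%) and the NRF1 letters in 4 (7.69%, against 4.88%). A match is a match of letters only and does not show that a factor was bound. The 7 genes with an E-box are shown with up to 12 bases on each side, 5′ to 3′ on the strand of the gene, with the E-box in capitals. By GENCODE the window of EBNA1BP2 overlaps an exon of CFAP57 on the opposite strand and one of another EBNA1BP2 transcript, that of IMP4 overlaps an exon of CCDC115 on the opposite strand, that of UTP4 lies in an exon of other UTP4 transcripts, and the other windows hold no annotated exon.
UTP4 (UTP-A subcomplex, chr16:69132621-69132648, plus strand): agagcgcgcgcgCACGTGgggccggggc
UTP18 (UTP-B subcomplex, chr17:51260445-51260474, plus strand): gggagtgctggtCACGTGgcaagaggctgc
UTP20 (processome scaffold, chr12:101280083-101280104, plus strand): cttttttccgtcCACGTGaccc
UTP14A (processome, chrX:129905914-129905940, plus strand): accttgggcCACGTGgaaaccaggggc
IMP4 (MPP10 complex, chr2:130342682-130342711, plus strand): gcggtcctaagtCACGTGtgacattctgta
EBNA1BP2 (large-subunit assembly, chr1:43172790-43172819, minus strand): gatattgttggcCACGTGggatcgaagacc
EXOSC5 (exosome ring, chr19:41397431-41397460, minus strand): taaacgctaagcCACGTGcggacgcccagg

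The 150 bases before the start are shown for the processome and large-subunit genes with the most negative response in H929, RRP9 and MRTO4, and with the least negative, UTP3 and RPF1, so that the start regions of genes that responded differently can be read side by side. Capitals mark the ETS core, which was present in UTP3 and RPF1. RRP9 also holds the ETS core among its 250 searched bases, farther from the start than the stretch shown. None of the 3 sets of letters was found in the 250 bases of MRTO4. By GENCODE the stretch of RPF1 overlaps exons of another RPF1 transcript and of a long noncoding RNA on the same strand, and the other stretches hold no annotated exon.
RRP9 (chr3:51941905-51942054, minus strand): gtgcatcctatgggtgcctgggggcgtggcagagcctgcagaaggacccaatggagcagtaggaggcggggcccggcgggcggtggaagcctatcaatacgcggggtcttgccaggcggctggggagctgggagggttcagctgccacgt
UTP3 (chr4:70688382-70688531, plus strand): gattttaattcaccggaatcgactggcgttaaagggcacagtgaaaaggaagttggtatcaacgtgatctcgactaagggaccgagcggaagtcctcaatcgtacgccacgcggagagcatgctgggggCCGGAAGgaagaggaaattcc
MRTO4 (chr1:19251655-19251804, plus strand): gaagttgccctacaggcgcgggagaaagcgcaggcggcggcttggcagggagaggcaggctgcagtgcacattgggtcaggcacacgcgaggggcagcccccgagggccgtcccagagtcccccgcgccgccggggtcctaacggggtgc
RPF1 (chr1:84479116-84479265, plus strand): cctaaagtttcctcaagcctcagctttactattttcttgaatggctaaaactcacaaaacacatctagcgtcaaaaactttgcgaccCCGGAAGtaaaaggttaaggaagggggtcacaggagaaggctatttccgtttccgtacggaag

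Before treatment, the levels of the assembly factors spanned a wide range. In the H929 ethanol libraries the median level was 375 TPM for the multifunctional nucleolar proteins, 32.1 TPM for large-subunit assembly, 21.6 TPM for the processome, 19.1 TPM for the exosome and 13.5 TPM for the late small-subunit factors. NPM1, the histone chaperone nucleophosmin, was the highest at 1249 ± 125 TPM (SD, n = 2), followed by NCL, the RNA-binding protein nucleolin, at 375 ± 23.4 TPM. Reads of NPM1 may be divided with its 49 annotated pseudogenes and are uncertain for that reason. The lowest were UTP25 at 3.67 TPM, BMS1 at 5.27 TPM and NOC4L at 5.43 TPM, all of the processome. In KMS11 the same stage led, with NPM1 at 1556 ± 189 TPM and NCL at 505 ± 70.9 TPM, and EXOSC4, a subunit of the exosome ring, was the lowest at 2.90 TPM. TPM values were compared between genes within a line only, because the median TPM of all tested genes differed between the lines.

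**Figure D1:**
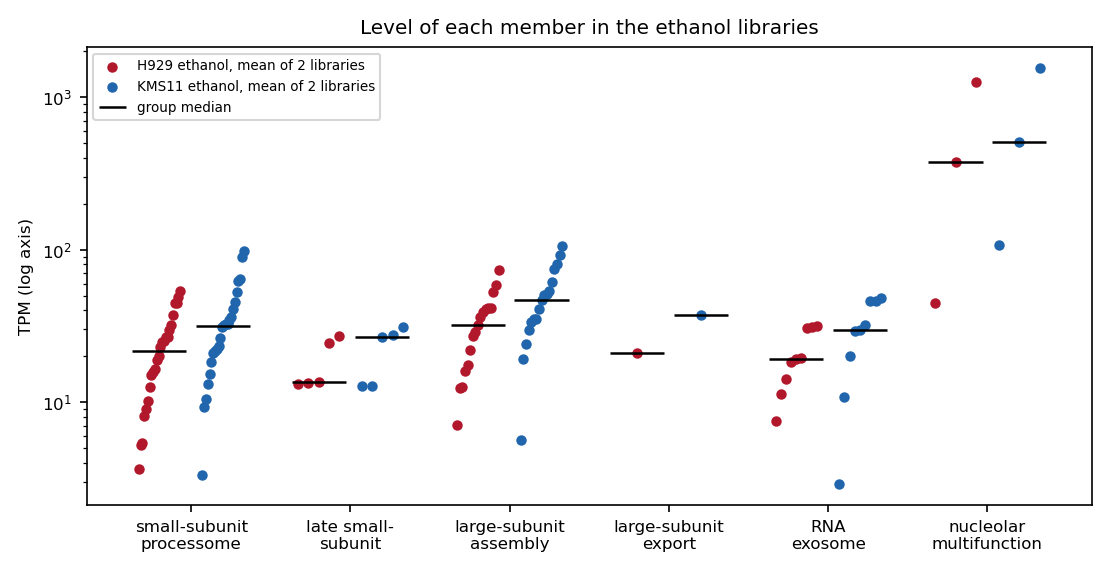
Level of each of the 59 genes in the ethanol libraries of H929 (red) and KMS11 (blue) by stage, as the mean TPM of 2 libraries on a log axis, with a black line at the median of each group. NPM1 and NCL lie above all other members in both lines, and the late small-subunit factors lie between 12.7 and 30.9 TPM in KMS11.

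The first comparison asked which assembly factors differed between the lines before any statin was given. On the scale of CPM, the counts as a share of the TMM-scaled library, 21 genes were higher in KMS11 and 20 were lower, with a median log2 difference (KMS11 minus H929) of 0.06. Among all tested genes 35.6% were called higher and 36.4% lower, with a median of -0.02, so that the share of members called was close to the background. On the scale of log2(TPM + 1) the median of all genes was shifted by 0.31 towards KMS11. There limma called 38 members higher and 7 lower, and 6644 of all 13129 tested genes higher and 2477 lower. The directions below are therefore relative to TMM scaling. The processome had 12 higher and 8 lower, and UTP-A and UTP-B together had 7 of these higher calls and 1 of the lower. Of the 5 late small-subunit factors, 4 were lower and only PNO1, a partner of the nuclease NOB1, was higher. Once the GC trend of each library was removed, 3 were lower, RRP12 having a difference of -0.087 (adjusted p = 0.34, edgeR), and the median of the 5 moved from -0.57 to -0.22.

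HEATR1, a UTP-A subunit that also takes part in transcription of ribosomal RNA, had the largest positive difference under TMM scaling. It measured 237 and 270 CPM in the H929 ethanol libraries and 621 and 613 CPM in those of KMS11, a log2 difference of 1.28 ± 0.10 (SE; adjusted p = 2.5e-06, edgeR quasi-likelihood test). UTP20, a scaffold protein of the processome, followed with 133 and 161 CPM in H929 and 297 and 301 CPM in KMS11 (1.03 ± 0.12). NOC3L, a large-subunit factor, had 74.6 and 86.9 CPM in H929 and 170 and 154 CPM in KMS11 (1.0 ± 0.12). For these 3 genes the libraries of the lines did not overlap. After removal of the GC trend their differences were 0.88, 0.63 and 0.61, still past the threshold, and NOP2, a large-subunit methyltransferase, had the largest.

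Under TMM scaling, the largest negative differences belonged to 2 subunits of the exosome ring and a processome protein. EXOSC4 measured 12.9 and 10.6 CPM in H929 and 3.6 and 2.95 CPM in KMS11, a log2 difference of -1.84 ± 0.33 (adjusted p = 0.00057). EXOSC5 had 40.8 and 34.6 CPM in H929 and 14.8 and 14.6 CPM in KMS11 (-1.36 ± 0.26). NOC4L had 16.6 and 13.3 CPM in H929 and 6.18 and 7.30 CPM in KMS11 (-1.15 ± 0.27). Exons of EXOSC4 are shared with an overlapping protein-coding gene on the same strand, between which its reads may be divided. The GC content of the canonical transcripts of these 3 genes was 64.0%, 60.7% and 64.2%, among the highest of the set, and over the 59 members the difference between the lines had a Pearson r of -0.64 with GC content. These points share 4 libraries. With the GC trend of each library removed, the differences were -0.88 for EXOSC4, -0.65 for EXOSC5 and -0.18 for NOC4L, the last no longer past the threshold (adjusted p = 0.28, edgeR). The order then changed, and UTP3 (-1.36), UTP14A (-1.25), IMP4 (-1.11) and WDR3 (-1.07), all of the processome, had the largest negative differences.

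In H929, fluvastatin was accompanied by lower transcript levels across the assembly pathway. Of the 59 genes, 49 fell, none rose, and the median log2 fold change was -0.59, whereas 19.3% of all tested genes fell and the median of all genes was 0.02. No member had an unadjusted p under 0.05 for a rise by edgeR, and DESeq2 also called no rise. Both fluvastatin libraries were below both ethanol libraries for 55 members, against 33.5% of all tested genes. The summed level of the members was 8960 and 10195 CPM in ethanol and 6041 and 6793 CPM in fluvastatin. The 31 genes called in every fit that left out 1 library included EXOSC2, MRTO4, NOP16, NCL, RRP9 and BYSL. The other 18 lost their call when one of the H929 libraries was left out. RRP12 lost it in each of these 4 fits (adjusted p = 0.071 to 0.12). Without fluvastatin replicate 1 or ethanol replicate 2 the call was lost by UTP11, UTP15, UTP18, WDR36, WDR43, WDR75, RCL1, MPHOSPH10, GNL2, NOC3L, NPM1 and EXOSC7 (adjusted p = 0.057 to 0.23), and without ethanol replicate 1 or fluvastatin replicate 2 by BOP1, EXOSC4, EXOSC5, NOC4L and NOB1. With the GC trend of each library removed, 56 members were lower, the 49 among them, against 27.2% of all tested genes.

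**Figure D2:**
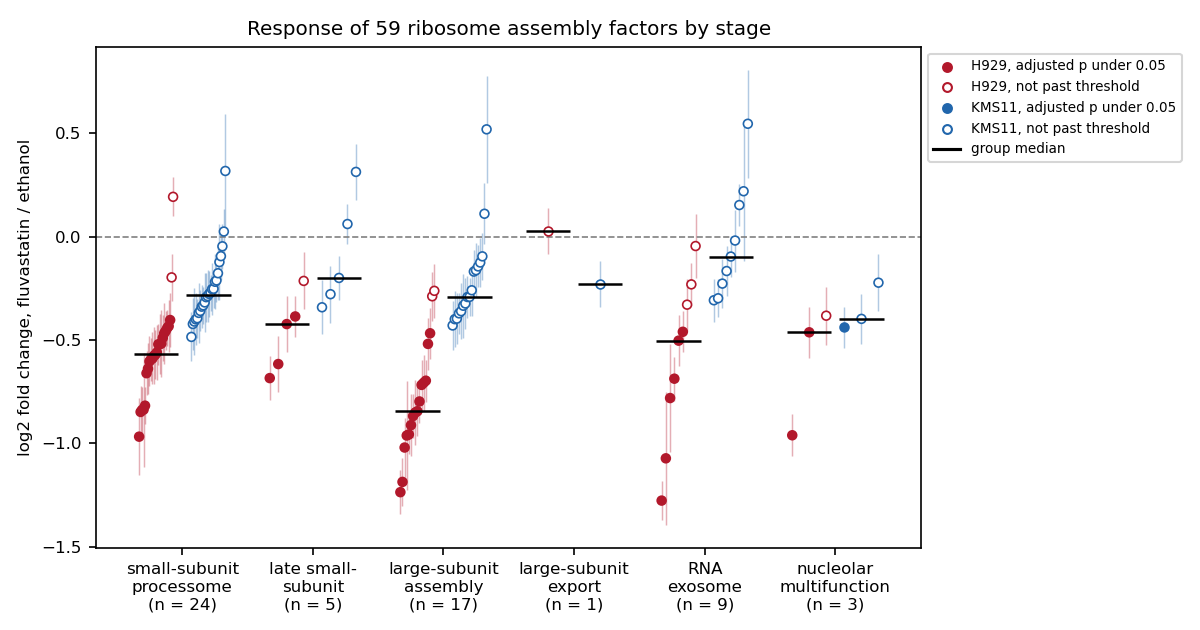
Log2 fold change of fluvastatin against ethanol for the 59 genes by stage, in H929 (red) and KMS11 (blue). Filled points passed an adjusted p of 0.05, vertical lines are standard errors and black lines are group medians. In H929 the 17 large-subunit assembly genes have a median of -0.84 and all lie below 0, and in KMS11 the only filled point is NCL.

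Of the 24 processome genes in H929, 22 fell, with a median log2 fold change of -0.56. All 5 UTP-A genes fell, from -0.40 to -0.64, and so did all 4 UTP-B genes, from -0.43 to -0.59. Of these, WDR75, UTP15 and WDR43 of UTP-A and UTP18 and WDR36 of UTP-B lost their edgeR call when H929 ethanol replicate 2 was left out (adjusted p = 0.23, 0.23, 0.20, 0.058 and 0.15). In the MPP10 complex IMP3, IMP4 and MPHOSPH10 fell, while UTP3, which is attached to the same complex, did not. RRP9, a protein of the box C/D particle that base-pairs with the precursor RNA, changed the most. It measured 38.3 and 37.3 CPM in ethanol and 19.6 and 19.1 CPM in fluvastatin, so that the groups did not overlap. Its log2 fold change was -0.97 ± 0.19 (adjusted p = 0.0024).

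UTP3 went the other way from the rest of the processome. It had 192 and 208 CPM in ethanol and 219 and 239 CPM in fluvastatin, and both treated libraries were the higher ones. Its log2 fold change was 0.19 ± 0.09, short of a call (adjusted p = 0.13). UTP25, the other processome gene not called, had a log2 fold change of -0.20 (adjusted p = 0.19). UTP25 passed the threshold by edgeR once the GC trend was removed (-0.28, adjusted p = 0.0062), and UTP3 did not.

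The late small-subunit factors are grouped here by their part in late maturation, which includes export of the particle and the last cut of its RNA. In H929, 4 of the 5 fell, with a median of -0.42. BYSL, which is needed for the release of the particle from the nucleolus, had 46.7 and 45.6 CPM in ethanol and 28.2 and 29.2 CPM in fluvastatin, a log2 fold change of -0.68 ± 0.11 (adjusted p = 0.00077). NOB1, the nuclease of the last cut, fell by 0.39 on the log2 scale. LTV1, an export-stage factor, had 88.3 and 107 CPM in ethanol and 76.6 and 91.6 CPM in fluvastatin, and these groups overlapped (-0.21 ± 0.14, adjusted p = 0.24). LTV1 passed the threshold by edgeR once the GC trend was removed (-0.31, adjusted p = 0.0049).

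Large-subunit assembly had the most negative median of the stages with over 1 gene, -0.84, and 15 of its 17 genes fell in H929. Whether its response differed from that of the processome was not tested. MRTO4, which holds the place of a ribosomal stalk protein on the immature subunit, had 114 and 136 CPM in ethanol and 50.4 and 55.5 CPM in fluvastatin. NOP16, a nucleolar factor of the same subunit, had 63.0 and 76.9 CPM in ethanol and 30.0 and 31.5 CPM in fluvastatin. In both genes the treated libraries lay well below the controls. Their log2 fold changes were -1.24 ± 0.11 (adjusted p = 2.7e-05) and -1.19 ± 0.12 (adjusted p = 5.6e-05). Exons of NOP16 overlap those of ARL10 on the opposite strand, and the strand setting of the read counting is not given in the sources used here.

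Members of one complex did not always have the same value. In PeBoW, which is needed to process the spacer between the large-subunit RNAs, PES1 (-0.80) and BOP1 (-0.96) fell, whereas WDR12 had a log2 fold change of -0.29 (adjusted p = 0.076). Among the Brix-domain proteins, BRIX1 (-0.85), RPF2 (-0.72) and IMP4 (-0.84) fell, and RPF1 had a log2 fold change of -0.26 ± 0.13 (adjusted p = 0.13). The CPM of RPF1 was 52.7 and 59.7 in ethanol and 43.0 and 50.8 in fluvastatin, a smaller gap between the groups than in MRTO4 or NOP16. Once the GC trend was removed, WDR12 (-0.40, adjusted p = 0.00055) and RPF1 (-0.37, adjusted p = 0.0017) passed the threshold too, so that all 17 large-subunit assembly genes were called by edgeR. RRS1, which with RPF2 docks the particle of the smallest large-subunit RNA, fell by 0.70 on the log2 scale. NOP2, an RNA methyltransferase, fell by 0.87, and GNL3, the GTP-binding protein nucleostemin, fell by 0.71. GNL3 hosts small nucleolar RNAs in its introns, as do NCL and WDR43.

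NMD3, the adaptor that links the large subunit to the export receptor, did not follow. It had 98.4 and 115 CPM in ethanol and 102 and 116 CPM in fluvastatin. The groups overlapped, and the log2 fold change was 0.03 ± 0.11 (adjusted p = 0.87).

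The exosome was the most uneven of the stages in H929, with log2 fold changes from -1.28 to -0.04 and 6 of its 9 subunits lower. All 3 subunits of the RNA-binding cap fell. EXOSC2, one of them, had the most negative value of the whole set, with 94.2 and 105 CPM in ethanol and 40.6 and 41.8 CPM in fluvastatin, a log2 fold change of -1.28 ± 0.09 (adjusted p = 1.2e-05) or 0.413 times the control level. EXOSC3 fell by 0.69 and EXOSC1 by 0.46 on the log2 scale. In the ring, whose subunits resemble a phosphate-dependent RNase, EXOSC4, EXOSC5 and EXOSC7 fell and EXOSC8 and EXOSC9 did not pass the threshold. EXOSC8 had 28.9 and 28.2 CPM in ethanol and 29.5 and 25.9 CPM in fluvastatin, overlapping groups with a log2 fold change of -0.04 ± 0.15. EXOSC10, the nuclease bound to the nuclear complex, had a log2 fold change of -0.23 (adjusted p = 0.10). EXOSC9 (-0.42, adjusted p = 0.00041) and EXOSC10 (-0.24, adjusted p = 0.023) passed the threshold by edgeR once the GC trend was removed. In that fit 8 of the 9 subunits were lower, all but EXOSC8.

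The falls of EXOSC4 (-1.07, adjusted p = 0.023), EXOSC5 (-0.78, adjusted p = 0.035), BOP1 (-0.96, adjusted p = 0.016) and NOC4L (-0.84, adjusted p = 0.034) in H929 belong to the genes with the highest GC contents of the set, and each lost its edgeR call when H929 ethanol replicate 1 was left out (adjusted p = 0.10, 0.14, 0.081 and 0.16) and when fluvastatin replicate 2 was (adjusted p = 0.11, 0.17, 0.083 and 0.18). EXOSC5 also lost it without H929 ethanol replicate 2 (adjusted p = 0.055). All 4 stayed called with the GC trend removed, with adjusted p from 0.00035 for BOP1 to 0.0032 for EXOSC5.

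Of the multifunctional nucleolar proteins, NCL and NPM1 fell in H929. NCL had 1299 and 1438 CPM in ethanol and 659 and 747 CPM in fluvastatin, a log2 fold change of -0.96 ± 0.10 (adjusted p = 7.9e-05). NPM1 had 1939 and 2329 CPM in ethanol and 1436 and 1661 CPM in fluvastatin (-0.46 ± 0.12, adjusted p = 0.013), and lost its call without H929 fluvastatin replicate 1 (adjusted p = 0.090) or ethanol replicate 2 (adjusted p = 0.11). DDX21, an RNA helicase, had 385 and 479 CPM in ethanol and 295 and 368 CPM in fluvastatin. Its log2 fold change of -0.38 ± 0.14 was just short of the threshold (adjusted p = 0.051). DDX21 passed it by edgeR once the GC trend was removed (-0.49, adjusted p = 0.00021).

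**Figure D3:**
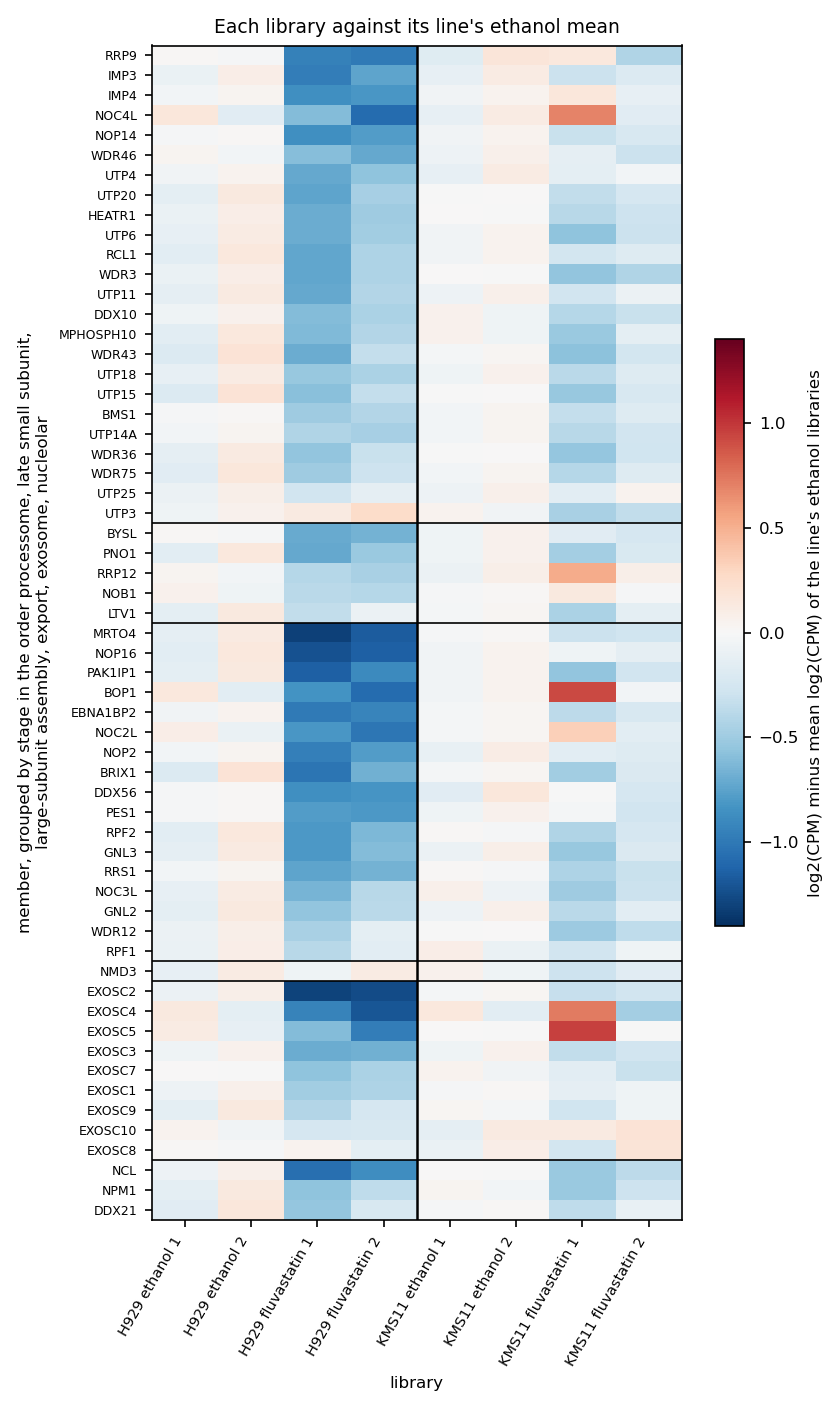
Heat map of log2 CPM in each of the 8 libraries minus the mean of the ethanol libraries of the same line, one row per gene, grouped by stage and ordered by the response in H929. The H929 fluvastatin columns are blue in nearly all rows, and in KMS11 fluvastatin replicate 1 BOP1, EXOSC4, EXOSC5, NOC4L and RRP12 are red while most other rows are blue.

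In KMS11 only NCL passed the threshold. It had 1195 and 1180 CPM in ethanol and 828 and 924 CPM in fluvastatin, without overlap, and a log2 fold change of -0.44 ± 0.10 (adjusted p = 0.049). Of all tested genes 0.533% were called lower. The median log2 fold change of the 59 members was -0.26, against 0.00 for all genes, and 50 of them had a negative value. Both fluvastatin libraries lay below both ethanol libraries for 43 members, against 26.5% of all tested genes. At an unadjusted p under 0.05, 27 members were lower and 1 was higher by edgeR. The share of all tested genes at this unadjusted threshold was not counted, so such counts, here and below, have no background beside them. DESeq2 called 12 members lower and 0 higher, where it called 2.05% of all tested genes lower. The summed level of the members was 10198 and 10334 CPM in ethanol and 7923 and 8738 CPM in fluvastatin. By stage the medians were -0.28 for the processome, -0.20 for the late small-subunit factors, -0.29 for large-subunit assembly, -0.10 for the exosome and -0.40 for the nucleolar proteins. Without fluvastatin replicate 1 these medians were -0.24, -0.15, -0.24, -0.08 and -0.30, in the same order. NMD3 had a log2 fold change of -0.23 ± 0.11 (adjusted p = 0.26).

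The count of calls in KMS11 depended on which libraries were kept, those of H929 among them. Without fluvastatin replicate 1, edgeR called 0 members (18 lower and 0 higher at an unadjusted p under 0.05), with a median of -0.23, and NCL had -0.37 (adjusted p = 0.18). Without fluvastatin replicate 2, it called 23 lower and 3 higher, with a median of -0.37, whereas 4.81% of all tested genes were lower and 11.3% higher in that fit. The 3 higher were BOP1 (0.88), EXOSC5 (0.91) and RRP12 (0.48), a factor of export and late maturation. NCL also lost its call without ethanol replicate 1 or ethanol replicate 2 of KMS11, with log2 fold changes of -0.46 and -0.48. It lost it too without ethanol replicate 1, ethanol replicate 2 or fluvastatin replicate 2 of H929, with an unchanged -0.44. In all these fits, and without KMS11 fluvastatin replicate 1, fewer of all tested genes were called lower as well.

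BOP1, EXOSC5 and RRP12 are rich in GC. BOP1 had 16.5 and 17.8 CPM in KMS11 ethanol, 32.7 CPM in fluvastatin replicate 1 and 16.8 CPM in replicate 2. EXOSC5 had 14.8 and 14.6 CPM in ethanol, 28.5 CPM in fluvastatin replicate 1 and 14.6 CPM in replicate 2. In both genes replicate 1 was alone in its height, and replicate 2 lay with the controls. Over the 59 members, the log2 ratio of fluvastatin replicate 1 to the ethanol mean had a Pearson r of 0.81 with GC content, and that of replicate 2 an r of 0.03. Of the 13 members over 55% GC, 7 were above the ethanol mean in replicate 1 and 1 was in replicate 2. With the GC trend of each library removed, 17 members were called lower in KMS11 and 0 higher, with a median of -0.18, against 2.48% of all tested genes lower. The part of GC content in the response of KMS11 was otherwise not tested.

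**Figure D4:**
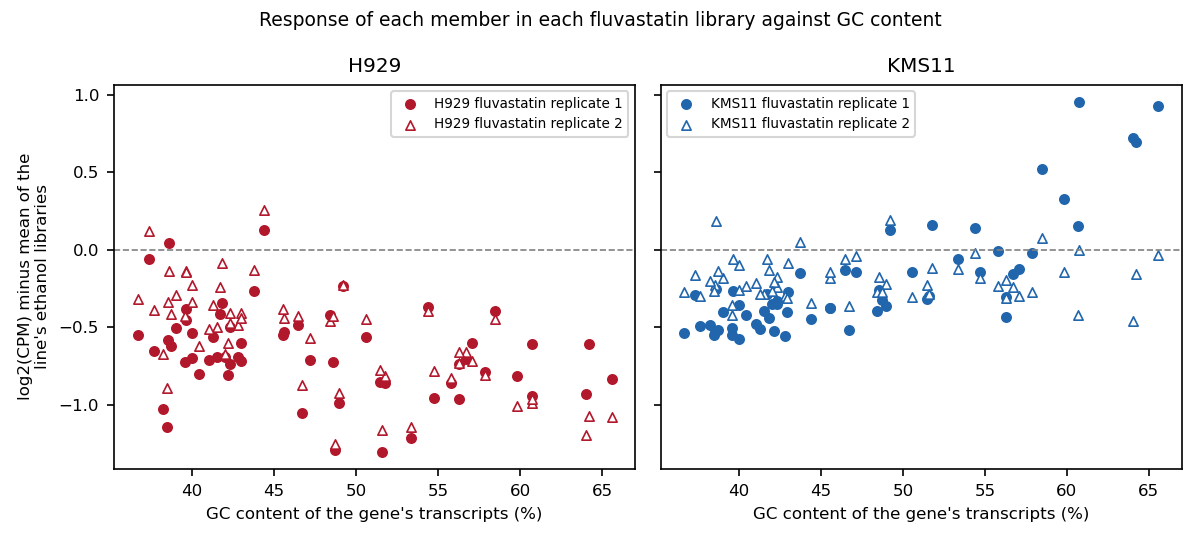
Log2 CPM in each fluvastatin library minus the mean of the ethanol libraries of its line, against the GC content of the canonical transcript, with one point per member and library. In KMS11 replicate 1 (filled circles) the values climb with GC content (r = 0.81) and in replicate 2 (open triangles) they do not (r = 0.03), while in H929 the r is -0.30 for replicate 1 and -0.67 for replicate 2.

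The response itself was then compared between the lines, as the log2 fold change in KMS11 minus that in H929. It was more positive in KMS11, so that the transcripts fell less or not at all, for 20 of the 59 genes, and more negative for 1. Of all tested genes 11.7% were more positive and 11.5% more negative, and the medians were 0.36 for the members and 0.00 for all genes. Large-subunit assembly held 9 of the 20, the processome 5, the late small-subunit factors 3, the exosome 2 and the nucleolar proteins 1.

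EXOSC2, NOP16 and MRTO4 had the smallest p-values for the difference. EXOSC2 had 102 and 106 CPM in KMS11 ethanol and 83.2 and 86.5 CPM in KMS11 fluvastatin, and the responses differed by 0.98 ± 0.13 (adjusted p = 0.0011). NOP16 had 44.9 and 47.9 CPM in KMS11 ethanol and 44.4 and 42.5 CPM in fluvastatin, where its groups did not overlap but lay close together, and the responses differed by 1.09 ± 0.16 (adjusted p = 0.0019). MRTO4 had 159 and 163 CPM in KMS11 ethanol and 131 and 132 CPM in fluvastatin, and the responses differed by 0.94 ± 0.15 (adjusted p = 0.0023). These 3, with IMP4 (0.86 ± 0.15) and NOC2L (1.02 ± 0.21), a large-subunit factor of the NOC complex, were the genes called in every fit that left out 1 library. In most of those fits fewer of all tested genes were called as well.

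**Figure D5:**
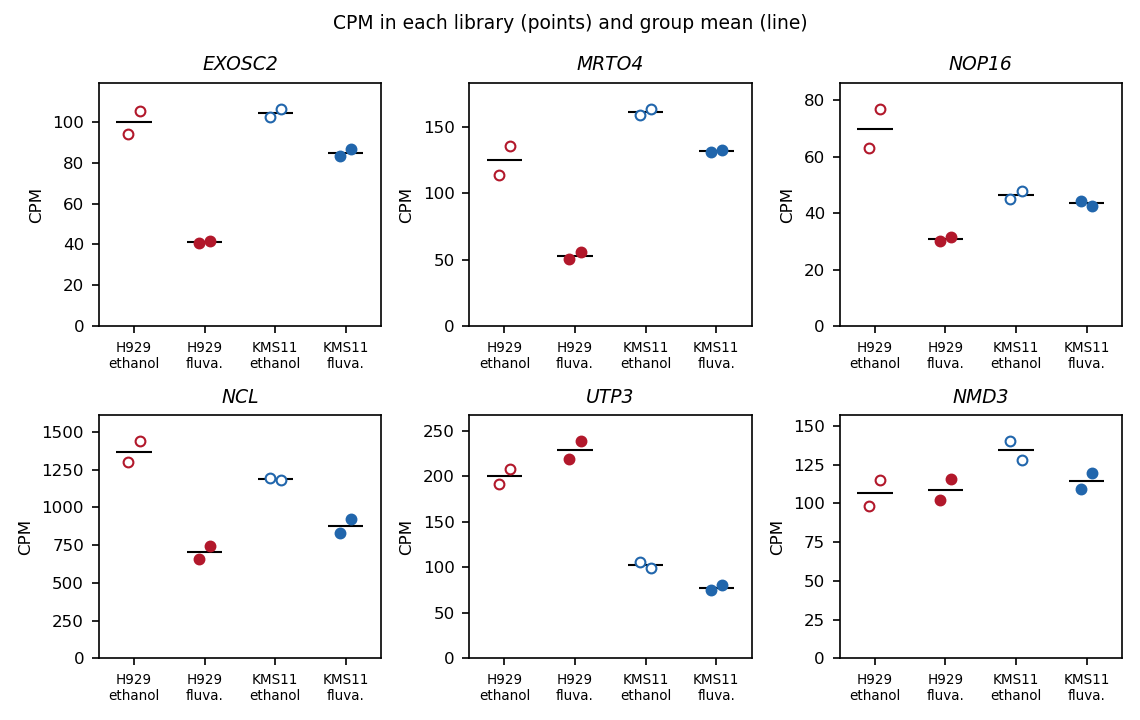
CPM of 6 members in each library (points) with the group mean (line), from 0, for H929 (red) and KMS11 (blue), open in ethanol and filled in fluvastatin. EXOSC2, MRTO4 and NOP16 fall to under 60 CPM in H929 and lie closer to their controls in KMS11, NCL is lower in both lines, UTP3 separates in opposite directions, and NMD3 overlaps in H929.

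UTP3 was the 1 gene with a more negative response in KMS11. It had 106 and 99.0 CPM in KMS11 ethanol and 74.9 and 80.7 CPM in fluvastatin, so that treated libraries were lower in this line and higher in H929. The KMS11 log2 fold change was -0.39 ± 0.10 (adjusted p = 0.057), and the responses differed by -0.59 ± 0.13 (adjusted p = 0.013). The difference was -0.51 without KMS11 fluvastatin replicate 1 (adjusted p = 0.036) and -0.40 with the GC trend removed (adjusted p = 0.0047, edgeR). It lost its edgeR call when either ethanol library of KMS11 was left out (adjusted p = 0.090 for replicate 1 and 0.052 for replicate 2), and likewise for ethanol replicate 1 (0.053) or fluvastatin replicate 2 (0.054) of H929.

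The GC-rich members also had the largest differences in response, BOP1 at 1.48 ± 0.37 and EXOSC5 at 1.33 ± 0.37. Over the 59 members the difference had an r of 0.78 with GC content, and over all tested genes an r of 0.29. Without KMS11 fluvastatin replicate 1 these became 0.95 and 0.80, both still past the threshold (adjusted p = 0.0094 and 0.022), 18 members were more positive in KMS11, against 10.8% of all tested genes, and the median was 0.42. With the GC trend of each library removed 44 members were more positive, against 20.7% of all tested genes, among them 17 of the 20, and BYSL, IMP3 and RRP9 were no longer called.

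Across both lines, with the line as a term, 28 members fell and 0 rose, with a median log2 fold change of -0.42, whereas 3.93% of all tested genes fell and their median was 0.03. No member had an unadjusted p under 0.05 for a rise by edgeR, and DESeq2 called none. The processome held 13 of the 28, large-subunit assembly 9, and the exosome, the late factors and the nucleolar proteins 2 each. Most of the 28 lost their call when any 1 library of H929 was left out, and many did when KMS11 ethanol replicate 2 was. Fewer of all tested genes were called lower in the same fits too. NCL was the gene called in every such fit.

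The 59 genes are a part of the pathway, and 76 further assembly genes on the same stages were counted beside them. In H929, 55 of the 76 fell and 1 rose, with a median of -0.52, and in KMS11 0 were called, with a median of -0.21, 26 lower and 0 higher at an unadjusted p under 0.05 by edgeR, while DESeq2 called 8 lower. Among these, large-subunit assembly had 31 of 36 lower in H929 and the processome 14 of 20, while large-subunit export had 3 of 7. The largest falls were those of PPAN (-1.13), a large-subunit factor, NOL6 (-1.07), a processome protein, and DDX51 (-1.06), a helicase of the large subunit. RIOK3, a kinase of the RIO family whose relatives release late small-subunit factors, was the gene that rose (0.81).

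MYC, which encodes a factor that binds the E-box, went against the members in H929 and with them in KMS11. Its transcript was at 41.1 and 34.2 TPM in H929 ethanol and 47.8 and 46.8 TPM in fluvastatin, and it rose (log2 fold change 0.39, adjusted p = 0.014). In KMS11 it was at 115 and 119 TPM in ethanol and 81.1 and 79.0 TPM in fluvastatin (-0.44, adjusted p = 0.054). The difference between these responses was -0.83 (adjusted p = 0.0039), opposite in sign to that of most members. All 7 genes shown with an E-box fell in H929, as did 35 of the 45 others with a start region, and their medians were -0.64 and -0.57. In KMS11 these medians were -0.28 and -0.26. Transcript levels do not show the level or the binding of the MYC protein, and whether MYC had a part in the response was not tested.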

How the data were processed

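Total RNA depleted of ribosomal RNA was made into stranded libraries. Per the labels, STAR 2.5.2b and RSEM 1.3.0 were run against hg38 by the authors. The deposited expected counts are not normalized, and the deposited TPM values are scaled by effective length over all annotated genes. The strand setting of RSEM is not given in the sources used here.

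Names, positions and the GC content of canonical transcripts came from GENCODE release 44. After rounding of the expected counts, edgeR 4.0.16 (R 4.3.3) was run on protein-coding genes that passed filterByExpr (minimum count 10, minimum total count 15), with TMM scaling and a quasi-likelihood F test on 4 group means, or on line and treatment for both lines together, with Benjamini-Hochberg adjustment over 13129 genes and a threshold of 0.05. The fit was tested on simulated data. limma 3.58.1 on log2(TPM + 1) and log2(TPM + 0.1) and DESeq2 1.42.0 served as alternatives. The standard error is the log2 fold change divided by the square root of F. Totals of 26702515 to 41910446 counts per library leave the spread between replicates, not depth, as the limit for most of these genes. For those with few reads, such as EXOSC4 in KMS11, depth may be a limit too. In each group the replicates differed by more than counting error. The GC trend of a library is a spline with 5 degrees of freedom through its log2 deviations from the mean.

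The members and lists were chosen with earlier results of these data known. Values per library were given for genes picked by rule: in each stage the most and least negative in H929 and the highest and lowest TPM, those called in KMS11, the 3 smallest p-values of the difference, the 3 largest differences each way in ethanol, and NCL, NPM1 and NMD3. Values of MYC were added after they were seen.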

Additional observations from a re-analysis of the deposited data

Results flagged for a closer look

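Of the 59 assembly factors, 21 responded differently to fluvastatin in H929 and KMS11 by the edgeR test of the difference itself (KMS11 minus H929, log2 scale). For 20 of them the response was more positive in KMS11. In large-subunit assembly the differences were 1.48 for BOP1, 1.09 for NOP16, 1.02 for NOC2L, 0.94 for MRTO4, 0.72 for DDX56, 0.70 for NOP2, 0.67 for EBNA1BP2, 0.65 for PES1 and 0.62 for PAK1IP1. In the processome they were 0.86 for IMP4, 0.84 for RRP9, 0.59 for IMP3, 0.55 for NOP14 and 0.54 for UTP4. The late small-subunit factors RRP12 (0.74), BYSL (0.48) and NOB1 (0.45), the exosome subunits EXOSC5 (1.33) and EXOSC2 (0.98), and NCL (0.52) made up the rest. UTP3 differed in the other direction (-0.59).

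The call was held in every fit that left out 1 library by 5 of the 21, EXOSC2, IMP4, MRTO4, NOC2L and NOP16. Leaving out KMS11 ethanol replicate 1 removed the call of all 16 others. Fewer of all tested genes, in either direction, were called in the fit without KMS11 ethanol replicate 1 as well. In BOP1 and EXOSC5 the height of KMS11 fluvastatin replicate 1 over replicate 2 moved with the difference, and GC content moved with it across the set. Their part in the result was not tested beyond the fits without that library and without the GC trend.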

How the results depend on the processing

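In H929 the number of members called was 43 to 57 under other tools, scalings, filters and trends, 36 at an adjusted p under 0.01, 5 at a log2 fold change of at least 1, and 36 to 52 when 1 library was left out. In KMS11, against 1 member, the number was 12 with DESeq2, 8 without a filter on low counts, 0 over all annotated genes, 17 with the GC trend and 17 with the GC and length trends removed, 2 with only the 4 libraries of the line, 0 at an adjusted p under 0.01, 0 at a log2 fold change of at least 1, and 0 to 26 when 1 library was left out. For the difference between the responses, against 21 members, it was 45 and 44 with those trends removed, 9 by limma on either TPM scale, 7 at an adjusted p under 0.01, 4 at a log2 fold change of at least 1, and 5 to 21 when 1 library was left out. Across both lines, against 28, it was 0 without the line as a term, 0 at an adjusted p under 0.01, 0 at a log2 fold change of at least 1, and 1 to 33 when 1 library was left out. Between the lines in ethanol, against 41, it was 8 at a log2 difference of at least 1 and 33 to 43 when 1 library was left out. The counts over all tested genes moved with these settings as well. Without the line as a term, 4 of 13129 genes were called higher and 0 lower. Without a filter on low counts, 895 of 16476 genes were higher in KMS11 and 203 lower. For the difference, limma called 757 higher and 1278 lower on log2(TPM + 1), and 725 and 1244 on log2(TPM + 0.1). Leaving out 1 library also changed the calls over all tested genes. The cause of these shifts was not tested, except that the stricter thresholds allow fewer calls by construction.

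The labels give the groups the same replicate numbers. Over 5561 well-expressed genes the deviations of same-numbered ethanol and fluvastatin libraries had a correlation of 0.77 in H929 and -0.08 in KMS11, so that same-numbered libraries deviated together in H929 but not in KMS11, and the numbers were not taken as pairs. With the replicate number as a block in the pairing, 52 members were called in H929, 22 in KMS11, 28 for the difference, 0 across both lines and 45 between the lines in ethanol. Of all 13129 tested genes, these fits called 3382 higher and 3044 lower in H929, and 1161 higher and 476 lower in KMS11. For the difference they called 2252 higher and 1975 lower, and between the lines in ethanol 4943 higher and 5102 lower. Across both lines they called 143 higher and 15 lower, against 854 and 516 without the block.

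No response of a named member changed sign with a call on either side, but several differences in ethanol (KMS11 minus H929) did. With the GC trend removed, and with the GC and length trends removed, these were 0.29 and 0.27 for BOP1, -0.36 and -0.34 for GNL3, -0.062 and -0.13 for NMD3, and -0.19 and -0.19 for EXOSC1, and WDR43 had -0.24 with both trends removed. By limma on log2(TPM + 1) and log2(TPM + 0.1) they were 0.022 and 0.023 for LTV1, 0.13 and 0.14 for RPF1, and 0.42 and 0.42 for NCL, where the medians of all genes were 0.31 and 0.46.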
